A study of Mus musculus with 18 samples.

Results

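The aortas of young, old and progeroid mice are compared here in 8 genes: Sphkap, Nfasc, Tnnt2 and Sbspon, which stood at higher levels in old WT mice, and Galnt6, Bche, Nrep and Itm2a, which stood at lower levels. These 8 of the 54281 genes in the table were chosen by their measured values, namely a large shift between 24-mo WT and 2-mo WT mice, so that difference is given as a description and without a test. All 8 had enough reads to enter the fit, in which 15210 genes were tested. RNA of the whole descending aorta, with its intimal, medial and adventitial layers, was sequenced from 18 male mice on a C57BL/6 background. There were 6 WT mice at 2 mo, 6 mice labelled LMNAG609G at 2 mo (called HGPS) and 6 WT mice at 24 mo. The HGPS mice carry a mutation in the lamin A gene that leads to progerin, the truncated lamin A of Hutchinson–Gilford Progeria Syndrome, on both alleles by the study's account of the model, while the labels do not give the zygosity. Labelled ages were 64 to 75 d for HGPS and 609 to 762 d for 24-mo WT mice, while 2-mo WT mice were 62 d old except replicate 6, which was 95 d old. The 2-mo WT mice therefore include 1 animal older than every HGPS mouse, and the values it moved most are also given without it. Column headers of the counts also carry a sample number, whose meaning the labels do not give. It is lower in all 24-mo WT mice than in all 2-mo WT mice, so those groups differ in this number as well as in age. HGPS replicates 1 to 3 have numbers below those of the 2-mo WT mice, and replicates 4 to 6 have numbers above them.

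The aortic wall is built of smooth muscle cells and elastic layers in the media, fibroblasts and collagen in the adventitia, and a single layer of endothelium, and its matrix is remodelled as animals age. None of the 8 genes is a classical marker of these cell types. Sphkap encodes an anchoring protein that tethers type I protein kinase A (PKA) and was named for its interaction with sphingosine kinase. Nfasc encodes neurofascin, an adhesion molecule of the L1 family best known from nodes of Ranvier and axon initial segments. Tnnt2 encodes cardiac troponin T, the subunit that joins the troponin complex to tropomyosin on thin filaments of heart muscle. Sbspon encodes a secreted matrix protein with somatomedin B and thrombospondin type 1 domains. Galnt6 encodes an enzyme that places the first sugar, N-acetylgalactosamine, of mucin-type O-glycans. Bche encodes butyrylcholinesterase, an enzyme that cleaves choline esters. Nrep, also called P311, encodes a small intracellular protein known for promoting translation of TGF-β ligands. Itm2a encodes a membrane protein with a BRICHOS domain described in cartilage and lymphocytes.

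Promoter sequences of 4 of these genes are shown because they stand for the patterns below: Sphkap and Tnnt2 were higher at 24 mo and Galnt6 and Bche lower, and of these Tnnt2 and Bche were also called in HGPS. The windows come from RefSeq on GRCm38.p6 and run from 250 bases before to 50 bases after an annotated start site, 5′ to 3′ on the strand of the gene. Of the 8 genes, 6 were matched in that set, and the first listed start site is shown where a gene had more than 1. Capitals mark every match, on either strand, to 7 motifs. These were the core promoter motif TATAAA, the NF-Y motif spelled CCAAT, the Sp1 motif spelled GGGCGG, the element CATTCC known from muscle genes, the AP-1 motif spelled TGANTCA, the E box spelled CAGCTG, and the CArG box of smooth muscle genes.
Sphkap (chr1:83408151-83408450, minus strand): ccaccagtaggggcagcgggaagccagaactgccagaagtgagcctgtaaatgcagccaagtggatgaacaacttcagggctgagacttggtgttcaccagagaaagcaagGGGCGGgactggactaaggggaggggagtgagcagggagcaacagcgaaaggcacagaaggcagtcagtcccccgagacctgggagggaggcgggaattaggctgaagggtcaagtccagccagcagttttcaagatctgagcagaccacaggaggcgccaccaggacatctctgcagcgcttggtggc
Tnnt2 (chr1:135836084-135836383, plus strand): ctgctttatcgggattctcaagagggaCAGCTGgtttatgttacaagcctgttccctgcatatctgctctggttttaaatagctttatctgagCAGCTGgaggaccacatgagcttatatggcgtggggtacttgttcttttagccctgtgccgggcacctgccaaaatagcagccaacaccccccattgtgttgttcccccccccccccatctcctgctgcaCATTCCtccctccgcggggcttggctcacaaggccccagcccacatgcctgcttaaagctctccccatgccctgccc
Galnt6 (chr15:100729327-100729626, minus strand): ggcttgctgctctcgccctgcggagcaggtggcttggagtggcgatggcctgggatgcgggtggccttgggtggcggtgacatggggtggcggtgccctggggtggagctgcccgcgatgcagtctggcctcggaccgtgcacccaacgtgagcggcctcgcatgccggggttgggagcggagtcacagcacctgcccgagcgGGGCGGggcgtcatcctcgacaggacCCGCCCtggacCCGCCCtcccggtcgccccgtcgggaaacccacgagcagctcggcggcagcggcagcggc
Bche (chr3:73708366-73708665, minus strand): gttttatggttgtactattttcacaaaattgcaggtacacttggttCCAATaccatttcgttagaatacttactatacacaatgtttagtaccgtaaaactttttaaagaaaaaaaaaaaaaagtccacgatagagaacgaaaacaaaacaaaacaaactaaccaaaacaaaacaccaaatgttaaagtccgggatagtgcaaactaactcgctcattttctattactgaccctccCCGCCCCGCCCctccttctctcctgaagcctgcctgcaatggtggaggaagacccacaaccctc
The windows shared no motif across all 4 genes. The Tnnt2 window held a CATTCC match and 2 CAGCTG matches, against 14.7% and 16.3% of all 32851 windows that held at least 1. GGGCGG, present in 35.7% of all windows, was found once at Sphkap, 3 times at Galnt6 and, in 2 overlapping matches on the other strand, at Bche, which also held CCAAT (37.4% of windows). The windows of Nfasc, listed with 2 start sites, and Itm2a held GGGCGG as well, in the first of the Nfasc windows. TATAAA (13.6%), TGANTCA (7.81%) and the CArG box (1.63%) were in none of the windows of the 6 genes, which says only that these letters are not in these windows. GC content ran from 39.3% at Bche to 73.7% at Galnt6.

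Levels are given as CPM, counts scaled by TMM to equal library sizes, as the lowest, median and highest of 6 mice. A gene was called when it changed at least 1.5-fold and its adjusted p, from the quasi-likelihood test of edgeR over all 15210 genes, was under 0.001. By this rule 1.28% of genes were called higher and 0.717% lower in 24-mo than in 2-mo WT mice, and the 4 genes of each direction described here were among them because they were chosen so. In a bulk sample, fewer cells of a type and less RNA per cell cannot be told apart, for these and all later values. Libraries held between 12413229 and 30844775 counts. Summed smooth muscle markers (9 genes, among them Myh11, Acta2 and Tagln) stood at 31956 to 40794 CPM in 2-mo WT, 33104 to 37772 CPM in 24-mo WT and 20889 to 29084 CPM in HGPS aortas, so the markers of the aortic media were abundant in every mouse. In HGPS 5 of the 9 smooth muscle markers and 4 of 8 fibroblast markers were called lower, and 7 of 8 macrophage markers were called higher. Over all tested genes 5.27% were called higher and 4.23% lower in HGPS. White fat markers summed to 255 to 1104 CPM in 2-mo WT and 883 to 3250 CPM in HGPS, and brown fat markers to 108 to 591 CPM and 455 to 1665 CPM. Of the fat markers, 1 of 7 and 2 of 7 were called higher in HGPS (Fabp4, Elovl3 and Ppargc1a), with median log2 fold changes of 1.56 and 1.97 for the 2 lists and 0.98 for macrophages. At 24 mo 1 of the 8 fibroblast markers was called lower (Dpt, -0.70 ± 0.11), with a median log2 fold change of -0.28 for that list. None of the smooth muscle, macrophage or fat markers was called at 24 mo. The part of these cell type shifts in the values of the 8 genes, in HGPS or at 24 mo, was not tested.

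**Figure D1:**
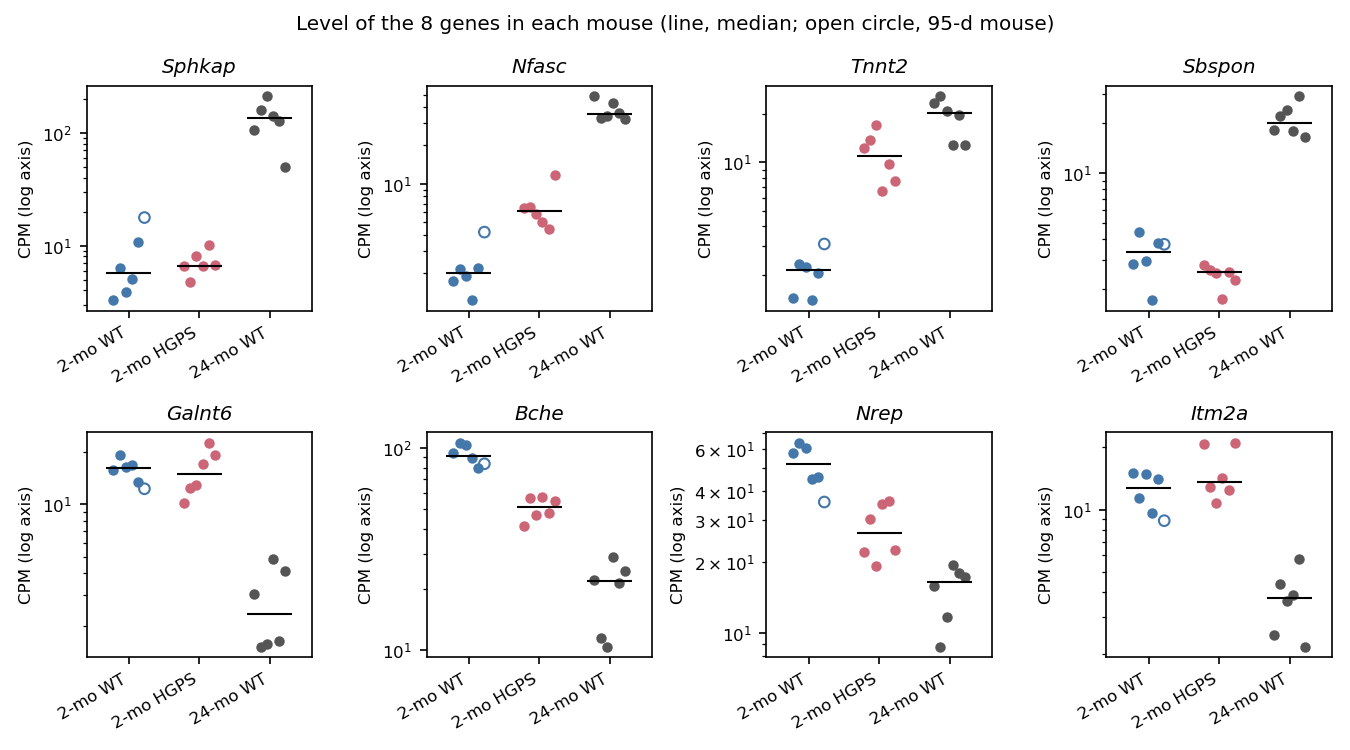
Level of each of the 8 genes in each mouse (y axis, CPM on a log scale; x axis, group), with a line at the median of 6 mice and the 95-d mouse of the 2-mo WT group as an open circle. All 24-mo WT mice lie above all 2-mo WT mice for the genes of the upper row and below them for the genes of the lower row; HGPS mice lie apart from 2-mo WT mice for Nfasc, Tnnt2 and Bche.

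Sphkap (ENSMUSG00000026163, chr1:83254139-83408200, minus strand, GRCm38) had the largest shift of all ranked genes. Its level was 3.26, 5.65 and 17.7 CPM (lowest, median, highest) in 2-mo WT, 4.74, 6.63 and 10.03 CPM in HGPS, and 49.5, 135 and 211 CPM in 24-mo WT mice. The lowest 24-mo mouse was well above every younger mouse, and the HGPS values lay inside the 2-mo WT range. The highest 2-mo WT value came from the 95-d mouse. The difference between 24-mo and 2-mo WT was 4.06 ± 0.38 (log2 fold change ± SE), a 16.7-fold higher level.

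Nfasc (ENSMUSG00000026442, chr1:132564690-132741797, minus strand) formed 3 separate steps. In 2-mo WT mice it stood at 1.22, 2.01 and 4.18 CPM, in HGPS mice at 4.43, 6.15 and 11.7 CPM, and in 24-mo WT mice at 32.2, 35.1 and 48.7 CPM. No value of one group fell among those of another, although the 95-d mouse came close to the lowest HGPS mouse. Against 2-mo WT, the log2 fold change was 4.05 ± 0.25 at 24 mo and 1.54 ± 0.25 in HGPS, and the latter passed the test (edgeR adjusted p = 9.44e-05).

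Tnnt2 (ENSMUSG00000026414, chr1:135836354-135852260, plus strand) was the gene of the 8 that differed most in HGPS. Its level was 1.38, 2.13 and 3.10 CPM in 2-mo WT, 6.63, 10.98 and 16.9 CPM in HGPS and 12.8, 20.3 and 25.8 CPM in 24-mo WT mice. Every HGPS mouse was above every 2-mo WT mouse, and 4 of the 6 HGPS mice were below every 24-mo mouse. HGPS replicates 1 to 3 were at 12.2, 13.7 and 16.9 CPM, and replicates 4 to 6 at 6.63, 9.73 and 7.65 CPM. Of the 8 genes, Tnnt2 and Galnt6 had no overlap between these sets of HGPS mice. The share of all tested genes without such overlap was not counted, so nothing particular to these genes can be read from it. The log2 fold change against 2-mo WT was 3.19 ± 0.26 at 24 mo, or 9.14-fold, and 2.41 ± 0.26 in HGPS, or 5.30-fold (edgeR adjusted p = 1.37e-06).

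Sbspon (ENSMUSG00000032719, chr1:15853862-15892722, minus strand) was at 1.70, 3.33 and 4.44 CPM in 2-mo WT, 1.75, 2.53 and 2.80 CPM in HGPS and 16.5, 20.1 and 29.1 CPM in 24-mo WT mice. The 24-mo mice stood apart from all others, and the HGPS mice kept to the lower part of the 2-mo WT range. The log2 fold change was 2.70 ± 0.18 at 24 mo, 6.5-fold, and -0.45 ± 0.19 in HGPS (edgeR adjusted p = 0.0692). An exon of Sbspon overlaps Gm37509 on the other strand, which had too few reads to be tested.

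Galnt6 (ENSMUSG00000037280, chr15:100691813-100729376, minus strand) had the largest fall among ranked genes. It stood at 12.3, 16.1 and 19.1 CPM in 2-mo WT, 10.2, 15.0 and 22.6 CPM in HGPS and 1.51, 2.34 and 4.85 CPM in 24-mo WT mice. All 24-mo mice were below all younger mice, while HGPS mice spread to both sides of the 2-mo WT values. HGPS replicates 1 to 3 were at 10.2, 12.4 and 12.9 CPM. Replicates 4 to 6, with higher sample numbers, were at 17.1, 22.6 and 19.2 CPM. The log2 fold change was -2.48 ± 0.27 at 24 mo, 0.179 of the 2-mo level, and 0.01 ± 0.23 in HGPS (edgeR adjusted p = 0.980), with a sign in HGPS that turned when single mice were left out. The gene overlaps an exon of its antisense RNA Galnt6os, which had too few reads to be tested.

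Bche (ENSMUSG00000027792, chr3:73635808-73708415, minus strand) formed 3 separate steps in the downward direction. Its level was 80.2, 91.9 and 106 CPM in 2-mo WT, 41.1, 51.2 and 57.0 CPM in HGPS and 10.4, 21.9 and 28.8 CPM in 24-mo WT mice. No mouse of one group reached the range of another. The log2 fold change was -2.22 ± 0.19 at 24 mo and -0.87 ± 0.18 in HGPS (edgeR adjusted p = 0.000736).

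Nrep (ENSMUSG00000042834, chr18:33437019-33464029, minus strand) showed the same order with some overlap. It stood at 35.8, 51.7 and 63.7 CPM in 2-mo WT, 19.2, 26.4 and 36.1 CPM in HGPS and 8.75, 16.5 and 19.3 CPM in 24-mo WT mice. In HGPS 5 of 6 mice were below all 2-mo WT mice, and the overlap came from the 95-d mouse, which was the lowest of its group. The log2 fold change was -1.76 ± 0.20 at 24 mo and -0.89 ± 0.19 in HGPS (edgeR adjusted p = 0.000916).

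Itm2a (ENSMUSG00000031239, chrX:107397099-107403376, minus strand) was at 8.83, 12.7 and 15.0 CPM in 2-mo WT, 10.7, 13.6 and 21.1 CPM in HGPS and 2.16, 3.74 and 5.76 CPM in 24-mo WT mice. The 24-mo mice lay below all others, and the highest HGPS mice exceeded the 2-mo WT range. The log2 fold change was -1.73 ± 0.23 at 24 mo and 0.32 ± 0.21 in HGPS (edgeR adjusted p = 0.236).

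The HGPS mice had no part in the choice of the 8 genes, so this comparison could be tested, although it shares its 2-mo WT mice with the contrast that chose them. Of the 8 genes, 4 were called in HGPS: Nfasc and Tnnt2 were higher, where 5.27% of all genes were called higher, and Bche and Nrep were lower, where 4.23% of all genes were called lower. The other 4, Sphkap, Sbspon, Galnt6 and Itm2a, were not called, with standard errors of 0.19 to 0.38 that leave room for moderate differences. HGPS values did not overlap those of 2-mo WT mice for Nfasc and Tnnt2 on the higher side (11% of all genes) and for Bche on the lower side (10.9% of all genes). Nfasc and Tnnt2 were called in all 12 fits that left out 1 HGPS or 2-mo WT mouse. Bche and Nrep were near the cut-off and were called in 1 and 3 of those 12 fits, with log2 fold changes of -0.92 to -0.82 and of -0.99 to -0.82 and edgeR adjusted p of 0.000934 to 0.00252 and of 0.000512 to 0.0030.

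**Figure D2:**
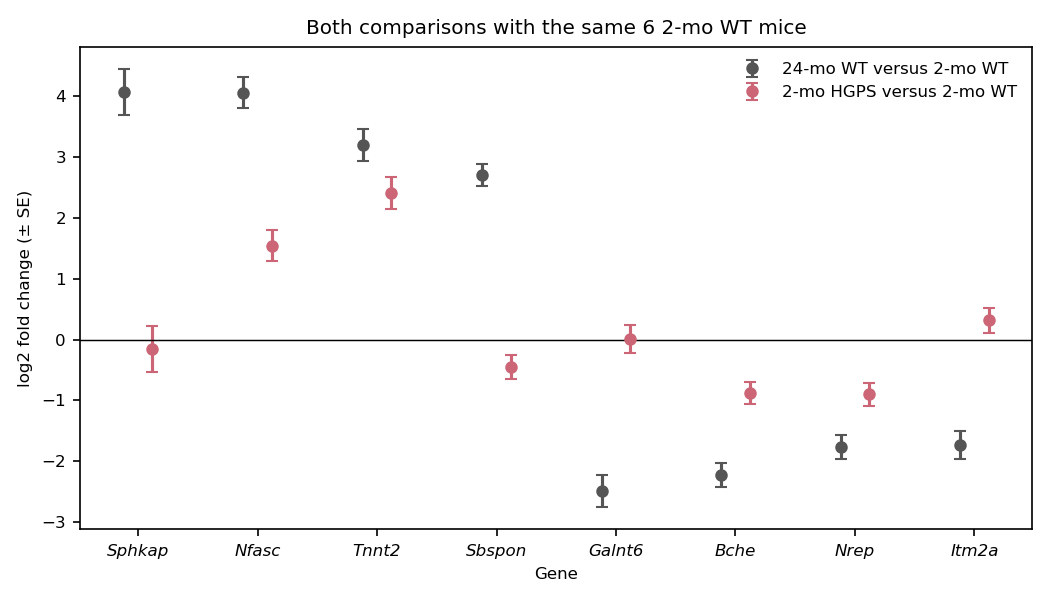
Log2 fold change (y axis, ± SE from the edgeR fit) of the 8 genes (x axis) in 24-mo WT mice and in 2-mo HGPS mice, each against the same 6 2-mo WT mice. The HGPS points lie near 0 for Sphkap and Galnt6 and reach 1.54 for Nfasc, 2.41 for Tnnt2, -0.87 for Bche and -0.89 for Nrep.

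Set beside 24-mo WT mice, as a description, HGPS mice had lower levels of Sphkap (log2 fold change -4.22 ± 0.38), Nfasc (-2.51 ± 0.22) and Sbspon (-3.15 ± 0.19), with no overlap of the groups in these 3 genes (11.3% of all genes were lower without overlap). Levels were higher in HGPS for Galnt6 (2.49 ± 0.27), Itm2a (2.04 ± 0.23) and Bche (1.35 ± 0.19), again without overlap (10.9% of all genes). The groups overlapped for Tnnt2 (-0.79 ± 0.23) and Nrep (0.86 ± 0.20). In all 8 genes the 24-mo WT mice therefore held the extreme mean level of the 3 groups.

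When called genes without overlap and with a mean count of at least 100 were ranked by log2 fold change, 113 were higher and 86 lower at 24 mo. No overlap was seen in 3.2% of all genes on the higher side and 3.08% on the lower side. The rank of Sphkap and Nfasc was 1 and 2, and Igfbp2, a binding protein of insulin-like growth factors, came next at 3.97, ahead of Tnnt2 and Sbspon. Just outside were Spp1 (osteopontin) at 2.69, Rgs17 at 2.64 and Prune2 at 2.58, close to the 2.70 of Sbspon. On the falling side Galnt6, Bche, Nrep and Itm2a were the first 4, followed by Col3a1 at -1.66, which encodes the α chain of type III collagen, and by Adamtsl2 at -1.65 and Cdh18 at -1.60. Igfbp2 was also called higher in HGPS, by 1.58 ± 0.33 (edgeR adjusted p = 0.000808). Spp1 had mean levels of 0.758 CPM in 2-mo WT, 4.93 CPM in 24-mo WT and 26.5 CPM in HGPS mice. It met the mean count of 100 through the HGPS mice. Its HGPS log2 fold change of 5.12 ± 0.37 is therefore a description.

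The 95-d mouse stood out within the 2-mo WT group for these genes, which was noticed after their values were seen. It was the highest of the 6 for Sphkap (17.7 CPM), Nfasc (4.18 CPM) and Tnnt2 (3.10 CPM) and the lowest for Galnt6 (12.3 CPM), Nrep (35.8 CPM) and Itm2a (8.83 CPM). Each of these 6 values lay on the side of the 24-mo WT mice. For Sbspon and Bche it lay inside the range of its group.

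The same was asked of all genes by leaving 1 2-mo WT mouse out, calling genes between 24-mo WT and the other 5, and placing the mouse left out. Of the 293 genes called without the 95-d mouse, it lay beyond the other 5 toward the 24-mo level in 159 (54.3%) and beyond them in the other direction in 9 (3.07%). For the 62-d mice the shares were 10% to 19.3% toward and 11.2% to 23% away. Their other 5 include the 95-d mouse, which can lower their shares toward, so the mice are not compared on equal terms. Over all tested genes the 95-d mouse was the highest or lowest of the 6 in 35.3%, within the 29.1% to 36.7% of the others, and its total of 20071531 counts was also within their range. With 1 such mouse, its age and any other difference between it and the rest cannot be told apart.

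**Figure D3:**
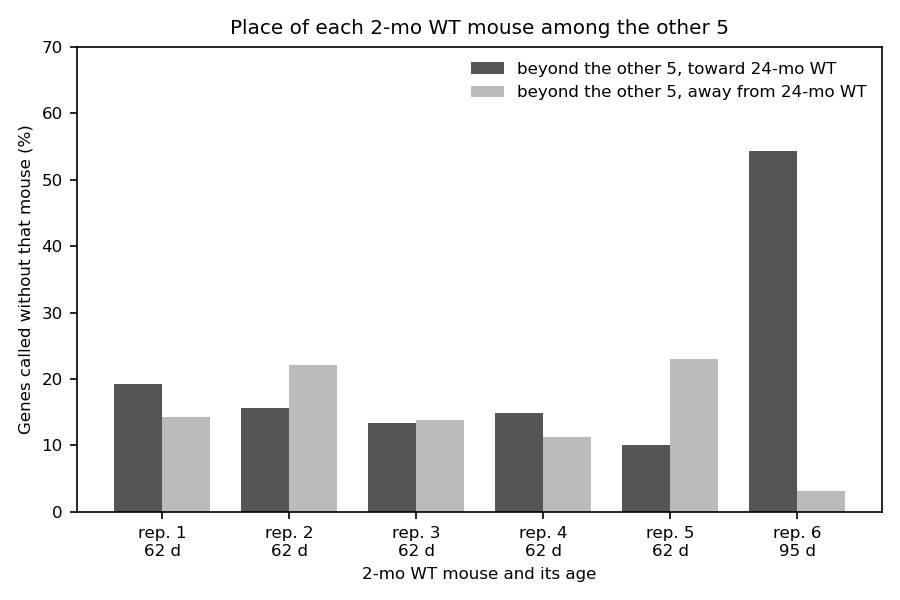
Share of genes (y axis, %) for which each 2-mo WT mouse (x axis, with its age) lay beyond the other 5, toward or away from the 24-mo WT level, among genes called between 24-mo WT and those other 5. The 95-d mouse reached 54.3% toward and 3.07% away, and no 62-d mouse exceeded 19.3% toward. For each 62-d mouse the other 5 include the 95-d mouse, which can lower its share toward.

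Without the 95-d mouse, the log2 fold change at 24 mo went from 4.06 to 4.50 for Sphkap, from 4.05 to 4.35 for Nfasc and from 3.19 to 3.35 for Tnnt2, and 293 genes were called against 304 with it. In HGPS the log2 fold change of Sphkap turned from -0.16 to 0.27 (edgeR adjusted p = 0.554), and that of Nfasc went from 1.54 to 1.83 and that of Tnnt2 from 2.41 to 2.56. Nfasc, Tnnt2 and Nrep were still called, and Bche was not, with a log2 fold change of -0.91 against -0.87 with the mouse (edgeR adjusted p = 0.00117). As given above, Bche was called in 1 of the 12 fits without single mice.

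Within the 24-mo WT group, the test of level against age in days passed for 0 of the 8 genes after adjustment (two-sided exact permutation tests over the 6 mice, adjusted p = 0.133 to 0.933 over the 8 genes). The smallest value belonged to Bche, with an unadjusted p of 0.0167 in the exact permutation test. Bche was at 10.4 to 22.3 CPM in the mice of 609 to 651 d and at 21.5 to 28.8 CPM in those of 748 to 762 d. The older mice thus lay mostly nearer the 2-mo WT level, opposite to the fall between the groups. The ages fell into 2 sets, 3 mice at 609 to 651 d and 3 at 748 to 762 d, so no correlation coefficient is given.

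**Figure D4:**
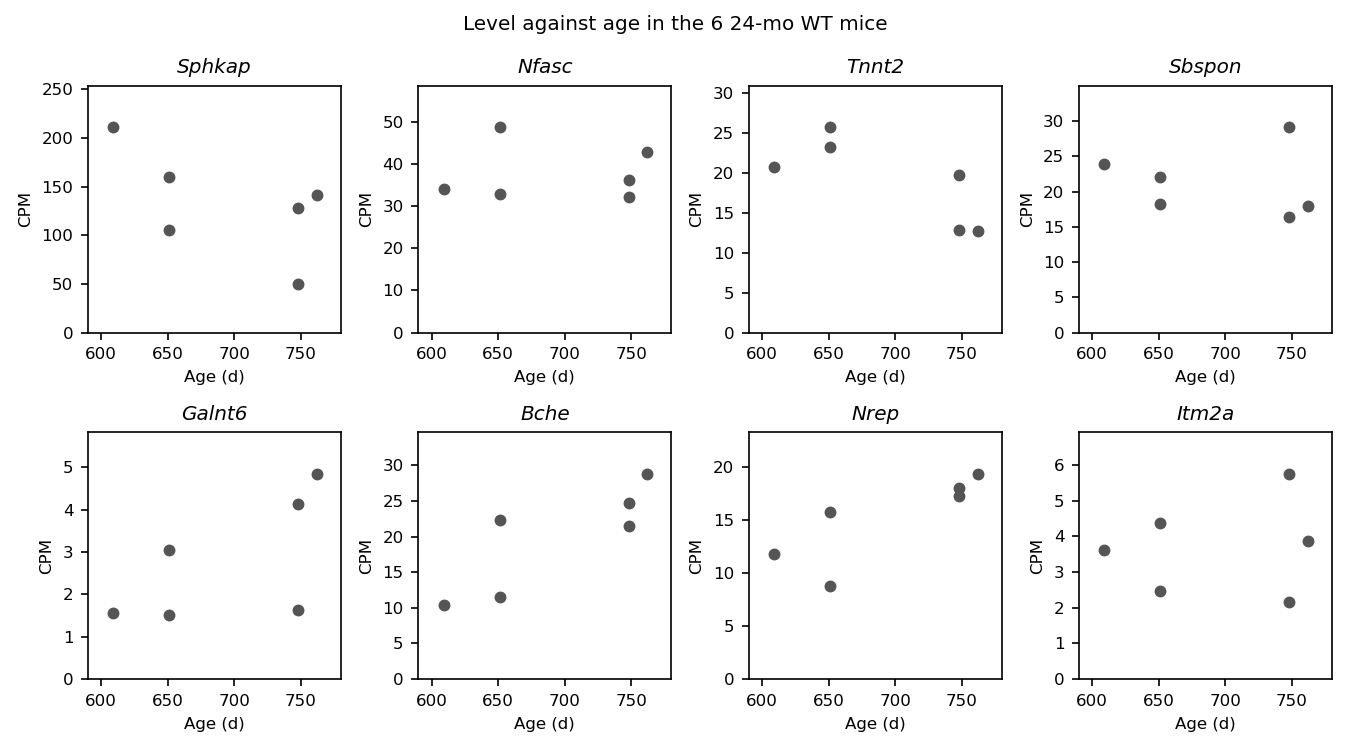
Level (y axis, CPM from 0) of the 8 genes in the 6 24-mo WT mice against age in days (x axis). The mice form 2 sets by age, at 609 to 651 d and at 748 to 762 d, and no gene passed the test of level against age (smallest adjusted p 0.133, exact permutation test).

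After the group means were removed, the log2 CPM of Bche and Nrep varied together over the 18 mice (Pearson's r = 0.734, permutation p = 0.00139, adjusted over the 28 pairs 0.0389; Spearman's rho = 0.707, permutation p = 0.00152, adjusted 0.0426). Within groups r was 0.861 in 2-mo WT, 0.468 in HGPS and 0.908 in 24-mo WT mice, and it was 0.654 without the 2 mice farthest from the median of Bche. No other pair passed an adjusted p of 0.05. The correlation of Bche and Nrep stayed positive whichever mouse was left out, but its adjusted p was under 0.05 in only 6 of 18 such tests.

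The genes most like each of the 8 were found by Pearson's r of log2 CPM over the 18 mice, among 10707 genes with a mean count of at least 100, and these values share the libraries and group differences that chose the 8. Sphkap was closest to Plekhb2 (r = 0.972), a protein of recycling endosomes, Kif1a (0.969), a kinesin motor of axonal transport, and Sbspon (0.951). Within groups, after removing the means, r with Sphkap was 0.762 for Plekhb2, 0.701 for Kif1a and 0.459 for Sbspon. Nfasc was closest to Lgi3 (0.960), Prune2 (0.931) and Pisd-ps1 (0.929), with r of 0.0572 to 0.214 once the means were removed. Little of this likeness was left within groups.

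Tnnt2 was closest to Tnfrsf11b (0.943), which encodes osteoprotegerin, to Gcnt4 (0.932), a glycosyltransferase, and to 6430548M08Rik (0.924). Within groups r was 0.805, 0.804 and 0.504. Sbspon was closest to Adcyap1r1 (0.960), the receptor of the neuropeptide PACAP, Tigar (0.959) and Ric3 (0.958), with r of 0.310 to 0.473 within groups.

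Bche was closest to Nrep (0.946), to Adamts2 (0.930), a protease that trims procollagen, and to Col3a1 (0.925), with r of 0.734, 0.468 and 0.410 within groups. Itm2a was closest to Col5a2 (0.946), a type V collagen chain, Pcolce2 (0.943), an enhancer of procollagen processing, and Mfap5 (0.925), a microfibril protein, with r of 0.450 to 0.568 within groups. Nrep was closest to Pmp22 (0.957), Bche and Cdon (0.932), and kept r of 0.847 with Pmp22 and 0.878 with Cdon within groups. Galnt6 was closest to Mreg (0.931), Angptl2 (0.928) and C1qtnf6 (0.922), with r of 0.590 to 0.689 within groups.

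Lists of relatives and partners show how far each gene moved alone. Among PKA subunits, anchoring proteins and sphingosine kinases, the list made for Sphkap, 1 of 19 tested genes was called higher and none lower at 24 mo. It was Prkar1b, the RIβ regulatory subunit of PKA, at 0.711, 1.02 and 1.42 CPM (lowest, median, highest) in 2-mo WT, 0.813, 1.15 and 1.67 CPM in HGPS and 3.11, 4.26 and 5.60 CPM in 24-mo WT mice. The 24-mo mice stood apart from all others, with a log2 fold change of 2.03 ± 0.23 (edgeR adjusted p = 5.82e-06). The median log2 fold change of the list at 24 mo was 0.03, beside 0.01 over all tested genes. In HGPS 1 gene of the list was called, Akap6, an anchoring protein of the nuclear envelope, which was lower by -0.66 ± 0.09 (edgeR adjusted p = 1.85e-05).

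Among L1 family molecules and their partners at nodes and axon initial segments, the list made for Nfasc, 1 of 12 tested genes was called higher and none lower at 24 mo. It was Cntn1, contactin-1, an axonal adhesion molecule that binds neurofascin at the paranode. Cntn1 stood at 0.41, 0.51 and 0.81 CPM in 2-mo WT, 0.31, 0.50 and 0.56 CPM in HGPS and 3.40, 5.15 and 12.7 CPM in 24-mo WT mice. The 24-mo mice were again apart from all others, with a log2 fold change of 3.64 ± 0.34 (edgeR adjusted p = 6.67e-07). In each younger group only 4 of the 6 mice had at least 10 counts of Cntn1, so the size of this change rests on few reads. Median log2 fold change of the list was 0.23 at 24 mo.

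In HGPS the same list gave Gldn, gliomedin, as called higher (0.72 ± 0.11) and Ank2, ankyrin-B, as called lower (-0.91 ± 0.09), by edgeR with adjusted p of 3.44e-05 and 3.17e-07. Markers of Schwann cells, the glia of peripheral nerves, summed to 153 to 193 CPM in 24-mo WT, 192 to 249 CPM in 2-mo WT and 170 to 206 CPM in HGPS mice, with none of 5 tested genes called at 24 mo. Neuron markers summed to 2.50 to 6.23 CPM in 24-mo WT, 2.03 to 4.13 CPM in 2-mo WT and 4.28 to 8.68 CPM in HGPS mice. At 24 mo none of 3 tested neuron markers was called, and in HGPS 2 of the 3 were called higher. These were Tubb3 and Prph, with low mean levels of 0.43 and 0.16 CPM in 2-mo WT and 2.54 and 1.36 CPM in HGPS mice.

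Among troponins, tropomyosins and other sarcomere genes, the list made for Tnnt2, none of 16 tested genes was called at 24 mo, and the median log2 fold change was 0.03. The partners of cardiac troponin T in heart muscle, Tnni3 and Tnnc1, had few reads, with 188 and 74 counts summed over the 18 mice. Tpm1 and Tpm2, the tropomyosins of smooth muscle thin filaments, had log2 fold changes of -0.14 and 0.01 at 24 mo. In HGPS Tnnt3, the fast skeletal troponin T, was called higher (2.00 ± 0.34), and Tpm1 (-0.60 ± 0.07) and Tcap (-1.61 ± 0.30) were called lower, by edgeR with adjusted p of 0.000139, 2.88e-06 and 0.00026. Mean levels of Tnnt3 were 0.30 CPM in 2-mo WT and 1.26 CPM in HGPS mice, so the size of its change rests on few reads.

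Transcripts of heart muscle were present in traces and uneven between mice. Myh6, the α myosin heavy chain of mouse heart muscle, was at 0.103 to 0.974 CPM in 2-mo WT, 0 to 7.96 CPM in HGPS and 0 to 8.38 CPM in 24-mo WT mice. Myl7, the atrial myosin light chain, did not exceed 1.63 CPM in any mouse. Of the 11 cardiomyocyte markers, 7 were tested and none was called at 24 mo, and in HGPS Ryr2 and Pln were called lower. The median log2 fold change of the 7 in HGPS was 0.59, with 4 of the others above 0. Actc1, cardiac α-actin, was at 1.14, 1.29 and 3.42 CPM (lowest, median, highest) in 2-mo WT, 3.23, 4.57 and 7.57 CPM in HGPS and 0.60, 1.21 and 2.46 CPM in 24-mo WT mice. Its log2 fold change in HGPS was 1.46 ± 0.33 (edgeR adjusted p = 0.00163, short of the cut-off) and that of Myh6 2.90 ± 1.17 (edgeR adjusted p = 0.0526). Myl7 had a fitted log2 fold change of 4.09 ± 1.21 that depends on the prior count (edgeR adjusted p = 0.0105), since it was at 0 to 0.162 CPM in 2-mo WT mice. Summed, the markers reached 73.4 to 102 CPM in 2-mo WT, 41.3 to 67.1 CPM in HGPS and 103 to 186 CPM in 24-mo WT mice. Most of this came from Ryr2, so the sum mainly followed that gene and not Myh6, Myl7 or Actc1. In HGPS, 5 of the 9 smooth muscle markers were called lower as well, as given above. Myl2 and Myl3, the light chains of the ventricle, had only 8 and 10 counts in all 18 mice together.

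In the 3 24-mo mice of 609 to 651 d, Myh6 was at 2.58 to 8.38 CPM and Tnnt2 at 20.8 to 25.8 CPM. In the older 3 mice of the group Myh6 was at 0 to 0.185 CPM, and Tnnt2 in them was 12.8 to 19.8 CPM, above the highest 2-mo WT value of 3.10 CPM. In HGPS the mouse with no count of Myh6 had 13.7 CPM of Tnnt2. Beyond these values, the part of heart muscle RNA in the Tnnt2 levels was not tested.

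In the list of Sbspon, with secreted proteins that carry thrombospondin type 1 repeats, 2 of 19 tested genes were called higher and 1 lower at 24 mo. Rspo3, an enhancer of Wnt signalling, had a log2 fold change of 0.74 ± 0.12 (edgeR adjusted p = 0.000476), and Ccn3, a matricellular protein, one of 0.67 ± 0.12 (edgeR adjusted p = 0.00061). Adamtsl2, a glycoprotein that binds latent TGF-β binding proteins and fibrillin, was lower by -1.65 ± 0.18, from 27.3 ± 6.26 to 8.75 ± 2.25 CPM (SD, n = 6; edgeR adjusted p = 3.93e-06). The list thus moved in both directions, with a median of 0.06. Rspo3 was called lower in HGPS (-0.67 ± 0.13), opposite to its direction at 24 mo, with levels of 3.67 to 5.77 CPM in 2-mo WT, 2.44 to 3.75 CPM in HGPS and 6.91 to 8.63 CPM in 24-mo WT mice. In HGPS Thsd4 (-0.79 ± 0.08) and Adamtsl1 (-0.77 ± 0.15) were also called lower and Ccn4 (0.85 ± 0.13) higher.

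The list made for Galnt6 held the enzymes that start and extend mucin-type O-glycans, with 18 genes past the count filter. Among them Galnt14, another starting enzyme, passed it only through the 24-mo mice, so it is described without a test, and of the other 17 none was called at 24 mo. Galnt14 stood at 0, 0.0296 and 0.207 CPM in 2-mo WT, 0, 0.0280 and 0.167 CPM in HGPS and 0.764, 1.29 and 1.83 CPM in 24-mo WT mice. It was near the limit of detection in every young mouse, so its fitted log2 fold change of 4.14 depends on the prior count. All 6 mice of the 24-mo group lay below every younger mouse for Galnt6 and above every younger mouse for Galnt14. In HGPS Galnt16 was called lower (-0.65 ± 0.10), by edgeR with an adjusted p of 6.55e-05.

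Of the 20 genes of acetylcholine breakdown, synthesis, transport and reception listed for Bche, only 7 had enough reads, and Chat, the enzyme that makes acetylcholine, had no count in any mouse. Chrnb1, the β1 subunit of the muscle nicotinic receptor, was called lower at 24 mo, from 8.64 ± 0.784 to 4.66 ± 0.78 CPM (SD, n = 6; log2 fold change -0.89 ± 0.12, edgeR adjusted p = 3.82e-05). Its partner subunit Chrna1 had a log2 fold change of -0.84 that missed the cut-off (edgeR adjusted p = 0.0046), and so did Ache, the other cholinesterase, at 1.31 (edgeR adjusted p = 0.0214). None of the 7 was called in HGPS.

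In the list of Nrep, with TGF-β ligands, their latent binding proteins, receptors and Smads, all 18 genes were tested and none was called at 24 mo, with a median of 0.06. In HGPS 1 was called higher, Ltbp2 (0.92 ± 0.14), and 3 lower, Ltbp4 (-0.91 ± 0.17), Smad6 (-0.88 ± 0.19) and Tgfbi (-1.13 ± 0.11). Ltbp2 and Ltbp4 are microfibril-associated relatives of the proteins that hold latent TGF-β in the matrix, and Tgfbi is a matrix protein induced by it. Of the 9 BRICHOS genes listed for Itm2a, 4 were tested and none was called in either comparison, with medians of -0.40 at 24 mo and -0.04 in HGPS. Its close relatives Itm2b and Itm2c had log2 fold changes of -0.12 and -0.08 at 24 mo.

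**Figure D5:**
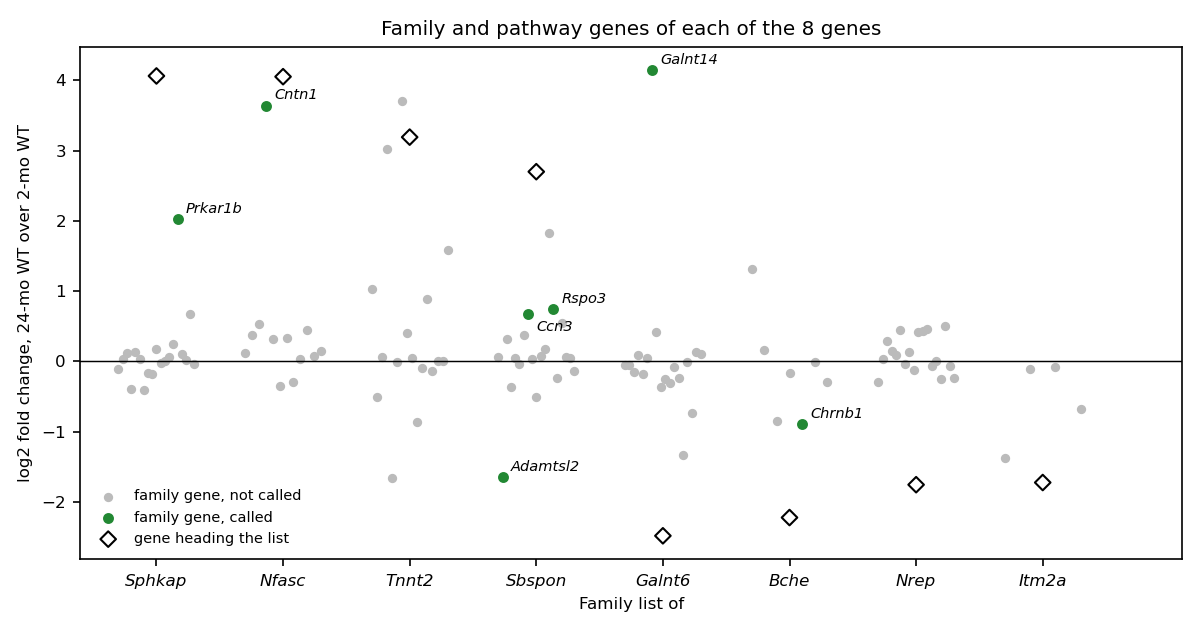
Log2 fold change between 24-mo and 2-mo WT mice (y axis) of the tested genes in the list of each of the 8 genes (x axis); green points are called, grey points are not, and open diamonds are the 8 genes themselves. Cntn1 (3.64), with few reads in the younger mice, lies close to Nfasc (4.05), and Prkar1b (2.03) lies below Sphkap (4.06). Galnt14 (4.14), detected well only at 24 mo, lies on the other side of 0 from Galnt6 (-2.48).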

How the data were processed

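The authors mapped paired-end reads of stranded, ribosome-depleted total RNA to GENCODE M23 transcripts with salmon and used tximport to obtain gene totals. Deposited were estimated counts, whole numbers without normalization, for 54281 genes in 18 mice, and were used as they stand. The submitters' processing notes also list Bowtie 0.12.2. Gene symbols and positions came from GENCODE M21 (GRCm38), which held 54107 of the identifiers.

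Genes with at least 10 counts in 6 mice were fitted in edgeR 4.0.16 (R 4.3.3; TMM, quasi-likelihood, 15 residual degrees of freedom), with the 3 groups together and Benjamini-Hochberg adjustment over 15210 genes. SE is the log2 fold change over the square root of F. Log2 CPM had a prior count of 2. Alternatives were DESeq2 1.42.0, other normalizations, filters and cut-offs, a replicate block, and leaving out each mouse. Correlations used 100000 permutations within groups. Scripts were tested on simulated data.

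The 8 genes, the lists of relatives and the cell type markers were chosen with earlier results of these data known. Genes named beside the 8 were the 3 most like each, those between or next after them in the ranking, and called list genes; others were named after their values were seen. Same-numbered mice are different animals. No mice had duplicate libraries (chi-square per degree of freedom 7.64 to 93.6). Age inside the 24-mo group was tested by exact permutation over pairings.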

Additional observations from a re-analysis of the deposited data

How the results depend on the processing

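The shift of each of the 8 genes at 24 mo kept its direction in all 19 alternatives run for it, as did the HGPS changes of Nfasc, Tnnt2, Bche and Nrep. Genes called between 24-mo and 2-mo WT numbered 304, with 481 under DESeq2, 1775 when an adjusted p under 0.05 sufficed and 135 when the cut-offs were 0.8 (log2 fold change) and 0.0001 (adjusted p). For HGPS against 2-mo WT the count was 1445, with 6567 and 497 at those cut-offs. Of the 8 genes, the 4 called in HGPS became 2 at the stricter cut-offs and 2 with the replicate block, and 2 to 4 when single mice were left out. With the block the edgeR adjusted p of Bche and Nrep was 0.00207 and 0.00217, the HGPS log2 fold change of Galnt6 moved from 0.0088 to -0.0357, and no other call of the 8 changed. Between groups the replicate numbers are only names. Deviations of same-numbered mice correlated by -0.16 to 0.17, and not every mouse correlated best with its own number. Without single mice the HGPS log2 fold change of Galnt6 ranged from -0.12 to 0.11 and that of Sphkap from -0.33 to 0.27. Pairs of the 8 genes with correlated deviations numbered 1 with all mice and 0 to 4 without single mice, so this count rests on few mice. No gene passed the test of age in the 24-mo group, in any of 8 alternatives. The cause of these changes was not tested. Levels under about 1 CPM, as of Galnt14, Myl7 and, in the younger mice, Cntn1, rest on few reads. So do those of Tnnt3, Tubb3 and Prph in 2-mo WT mice.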

Other observations

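The 4 genes that were higher at 24 mo all lie on chromosome 1, which was noticed after they were chosen and was not tested. Igfbp2, between them in the ranking, lies there too (chr1:72824503-72852474, GRCm38), so the first 5 genes of the rising ranking share a chromosome. Of the 20 largest rises, 7 (35%) were on chromosome 1, Col19a1 and Kif1a in addition to those 5. Chromosome 1 held 6.17% of all tested genes, 11.3% of the 195 genes called higher and 8.26% of the 109 called lower at 24 mo. The genes do not form 1 cluster: the nearest of them, Nfasc and Tnnt2, are 3.09 Mb apart.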
